A study of Mus musculus with 6 samples.

Results

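Kntc1, Neil3, Ankle1 and Hist2h4 are genes of chromosome segregation, DNA repair and chromatin packaging in cells that replicate their DNA or divide. They were selected on their measured values, as the genes of this kind that stood higher in the knockout among 466 genes that the authors had themselves picked for a difference between the same samples. The 4 genes are therefore 4 of 56 listed genes that were higher and of 466 listed genes in all, and their group difference is given as a description with no test. The samples were microglia, the resident macrophages of the brain, freshly isolated from adult C57BL/6N mice, and libraries were made from their poly(A) RNA. The knockout group (n = 3) carried Cx3cr1CreER-EYFP, Piezo1 fl/fl and 5×FAD, and the control group (n = 3) carried Piezo1 fl/fl and 5×FAD, with no Cre allele named. Mice of both groups were male littermates given 4 daily intraperitoneal injections of tamoxifen at 20 mg/kg from an age of 4.5 weeks. Floxed Piezo1, the 5×FAD transgenes of an Alzheimer's disease model and tamoxifen were thus shared, and the loss of Piezo1, a mechanically gated cation channel gene, cannot be told apart from the presence of the Cre allele. The Cx3cr1 driver also acts in other myeloid cells that express the receptor, such as macrophages at the borders of the brain. The labels do not say how many mice gave each sample.

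In a dividing cell, kinetochores tie the chromosomes to the spindle and hold back their separation until each one is attached. Copying the genome also calls for repair of damage at replication forks, for nucleases that cut branched DNA, and for new histones on which the daughter strands are wrapped. Adult microglia renew slowly from their own pool and are known to divide more often around amyloid plaques.

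Kntc1 encodes the Rod subunit of the Rod-Zw10-Zwilch complex, which brings dynein and spindle checkpoint proteins to unattached kinetochores. It lies on the plus strand of chromosome 5, positions 123749716 to 123821593 (GRCm38, ENSMUSG00000029414). Its level was 66.8, 76.6 and 96.1 normalised reads (reads on the gene after the authors' scaling between samples) in knockouts 1, 2 and 3, against 56.9, 34.9 and 17.6 in controls 1, 2 and 3. Every knockout sample was above every control, but control 1 came close to knockout 1 and the controls spanned a 3.23-fold range. The mean level was 79.8 ± 14.9 normalised reads in the knockout and 36.5 ± 19.7 in the controls (SD, n = 3 each), 2.19-fold apart.

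Neil3 encodes a DNA glycosylase that removes oxidised bases from single-stranded DNA and opens crosslinks between strands at stalled forks. It lies on the minus strand of chromosome 8, positions 53586867 to 53639065 (GRCm38, ENSMUSG00000039396). Its level was 47.2, 47.0 and 44.5 normalised reads in knockouts 1, 2 and 3, against 34.3, 23.3 and 9.78 in controls 1, 2 and 3. The knockout samples were nearly level with each other, while control 1 stood 3.51-fold above control 3. The knockout mean was 46.2 ± 1.48 normalised reads and the control mean 22.5 ± 12.3 (SD, n = 3 each), a ratio of 2.06.

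Ankle1 encodes an endonuclease with ankyrin repeats and a LEM domain that cuts branched DNA and DNA bridges left between daughter cells. It lies on the plus strand of chromosome 8, positions 71406010 to 71409904 (GRCm38, ENSMUSG00000046295). Its level was 39.3, 60.2 and 48.6 normalised reads in knockouts 1, 2 and 3, against 37.3, 14.5 and 10.8 in controls 1, 2 and 3. Control 1 was almost as high as knockout 1, and the groups were separated by a 1.05-fold gap between these samples. Means were 49.4 ± 10.5 normalised reads in the knockout and 20.9 ± 14.3 in the controls (SD, n = 3 each), a ratio of 2.37.

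Hist2h4 encodes histone H4, a core histone that pairs with H3 in every nucleosome. It lies on the minus strand of chromosome 3, positions 96261682 to 96263311 (GRCm38, ENSMUSG00000091405). Its level was 34.4, 28.6 and 29.3 normalised reads in knockouts 1, 2 and 3, against 11.8, 6.79 and 17.6 in controls 1, 2 and 3. Here control 3 was the highest control and control 2 the lowest, and the smallest knockout value was 1.62-fold above the largest control value. The knockout mean, 30.8 ± 3.16 normalised reads, was 2.55-fold the control mean of 12.1 ± 5.42 (SD, n = 3 each).

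**Figure D1:**
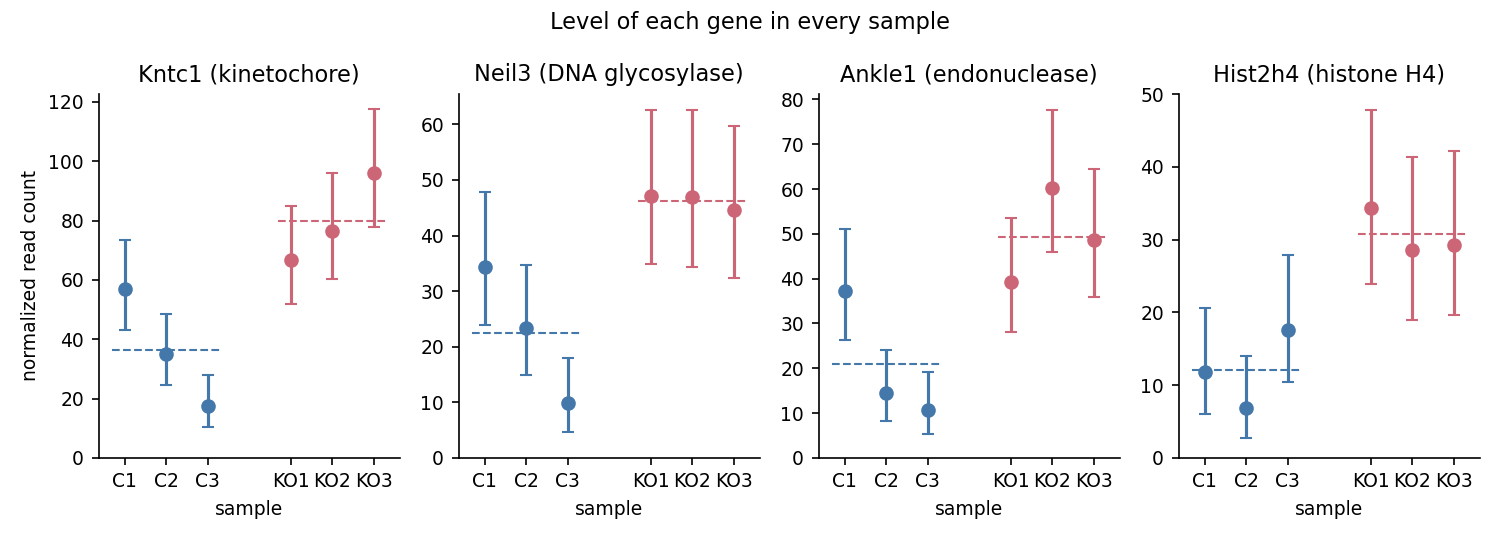
Normalised read count (linear axis from 0) of each gene in controls C1 to C3 and knockouts KO1 to KO3. Bars are 95% exact Poisson intervals of the reads, which cover counting error only, and dashed lines are group means. C1 is the highest control for Kntc1, Neil3 and Ankle1, at 56.9, 34.3 and 37.3, and C3 is the highest for Hist2h4, at 17.6.

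Hist2h4 belongs to a family whose members encode the same protein, and its sequence shows how far its reads can be placed. All 12 other H4 genes of the annotation (GENCODE M21, GRCm38) encode a protein of 103 residues identical to that of Hist2h4. Their coding sequences of 309 bases, however, were from 85.4% to 91.3% identical to it. Of the 1481 windows of 150 bases, the read length, in the Hist2h4 transcript, 0 occurred in a transcript of another gene on either strand, and 0 of 1531 windows of 100 bases did. At 50 bases, 16 of 1581 windows (1.01%) did, all in a run of 65 bases shared with Hist1h4d. That run is shown with the same coding stretch of Hist4h4, the least like family member, in which capitals mark the 9 bases that differ from Hist2h4. The stretches are chr3:96263108-96263172 on the minus strand, chr13:23581734-23581798 on the plus strand and chr6:136804183-136804247 on the minus strand (GRCm38), all exonic and coding.
Hist2h4: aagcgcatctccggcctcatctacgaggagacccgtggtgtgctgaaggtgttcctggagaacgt
Hist1h4d: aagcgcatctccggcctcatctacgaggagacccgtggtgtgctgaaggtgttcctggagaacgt
Hist4h4: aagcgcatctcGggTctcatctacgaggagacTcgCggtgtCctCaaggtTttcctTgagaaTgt

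The model behind the Hist2h4 value was also long for a histone gene. Messages of replication-dependent histones are short and usually end in a stem-loop in place of a poly(A) tail, and the libraries here were made from poly(A) RNA. The table gives 1630 bases in a single exon, of which 309 are coding and 1311 follow the stop codon, whereas the RefSeq model of the same gene, H4c14, spans 384 bases (23.6% of that length). Where along the 1630 bases the reads fell was not analysed here. The window test covered the longest coding transcript of each gene. This was 6961 bases for Kntc1, against 7983 in its gene model, and 2253 for Neil3, against 5555, and the rest was not searched. In these transcripts Kntc1 and Neil3 had 0 windows of 25 bases in common with another gene. At 25 bases Ankle1 had 69 of 2112 (3.27%) and Hist2h4 98 of 1606 (6.10%). Ankle1 had 0 at 100 bases and 27 of 2087 (1.29%) at 50 bases, all after its coding sequence. No other annotated gene overlapped any of the 4 genes, and the nearest protein-coding genes were Rsrc2 at 302 bases from Kntc1, Babam1 at 1391 from Ankle1, Hist2h3b at 5343 from Hist2h4 and Aga at 63446 from Neil3. None of these neighbours was listed.

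**Figure D2:**
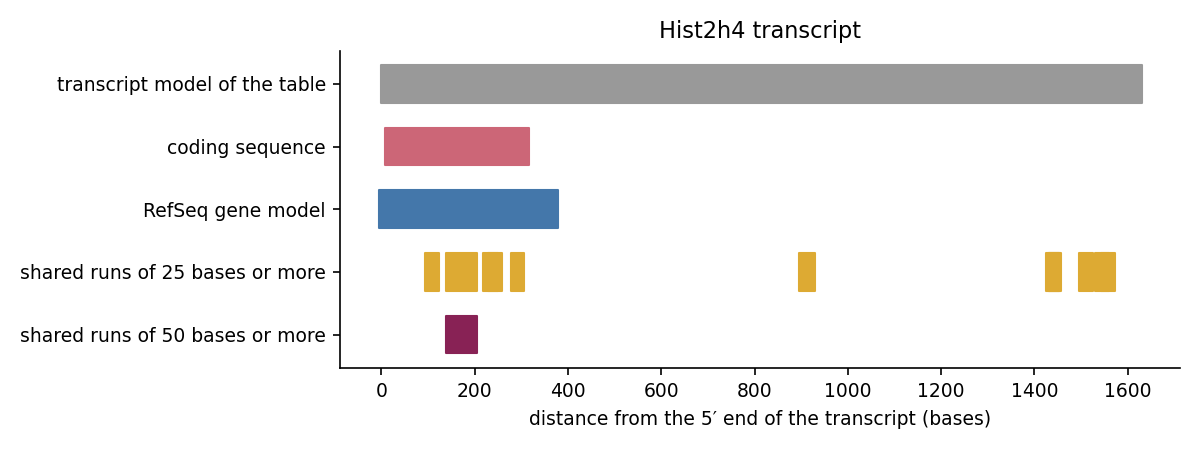
Hist2h4 transcript by distance from its 5′ end in bases, with the model of 1630 bases, its coding sequence of 309 bases, the RefSeq model of 384 bases, and the runs of at least 25 and at least 50 bases that occur in transcripts of other genes. The single run of at least 50 bases lies in the coding sequence and is 65 bases long.

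All 4 genes were higher in all 3 knockout than in all 3 control samples. The same held for 47 of the 466 listed genes (10.1%) and for 47 of the 56 listed as higher, so the separation follows from how the genes were picked. In the authors' deposited table the log2 fold changes were 1.13 for Kntc1, 1.04 for Neil3, 1.24 for Ankle1 and 1.35 for Hist2h4. The authors' deposited table held genes with an unadjusted p under 0.05 and a log2 fold change beyond 1 in either direction. Neil3 lay just inside both limits of the authors' deposited table, with an unadjusted p of 0.0468. The smallest log2 fold change among the higher genes of the authors' deposited table was 1.02, and genes outside the limits were not analysed here. The adjusted p of each of the 4 genes in the authors' deposited table was 0.9998, over 19107 genes. It was under 0.05 there for 14 of the 466 genes (3.00%), and 0 of these were higher, although all 56 higher genes had an unadjusted p under 0.05. By log2 fold change, the 4 genes were among the less changed of those listed as higher, with a median of 1.19 against 2.14 for all 56 higher genes in the authors' deposited table. They were also among the more abundant, since 18 of the 56 higher genes had a mean of at least 20 normalised reads and all 4 were among these 18.

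The spread among controls was larger than the counting of reads gives. The counting SD of the controls was 5.97 normalised reads for Kntc1, 4.68 for Neil3 and 4.52 for Ankle1, against the observed control SDs of 19.7, 12.3 and 14.3. For Hist2h4 the counting SD was 3.43 and the observed one 5.42. Within the knockout, the observed SD was above the counting SD for Kntc1 (14.9 against 8.97) and Ankle1 (10.5 against 7.05). There the observed SD of Neil3 was below its counting SD of 6.82, and that of Hist2h4 was below its counting SD of 5.56.

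Counting intervals of control 1 overlapped those of the knockout for every one of the 4 genes. The 95% Poisson interval of Neil3 in control 1, 23.9 to 47.8 normalised reads, overlapped the intervals of all 3 knockout samples, and so did that of Ankle1, 26.4 to 51.2. For Kntc1, the interval of control 1, 43.2 to 73.6, overlapped those of 2 of the 3 knockouts. In control 3, the intervals of Kntc1, Neil3 and Ankle1 overlapped 0 of the 3 knockout intervals each. Hist2h4 differed in this, since its interval in control 3, 10.4 to 27.8, overlapped all 3 knockout intervals and its interval in control 1 overlapped 2.

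Set against control 1 alone, a comparison chosen after the values were seen, the knockout mean of Kntc1 was 1.40-fold higher, that of Neil3 1.35-fold and that of Ankle1 1.32-fold. Set against the mean of controls 2 and 3, these ratios were 3.04, 2.80 and 3.90. For Hist2h4 the ratios were 2.61 and 2.52, about the same against either. On the scale of log2(value + 1), the difference between knockout and control over all samples was 1.24 (SE 0.66) for Kntc1, 1.17 (SE 0.69) for Neil3, 1.38 (SE 0.70) for Ankle1 and 1.37 (SE 0.68) for Hist2h4. Each SE is limma's moderated one, drawn towards the variance trend of the 466 selected genes, and not the gene's own spread alone. Without control 3 the difference was 0.81 for Kntc1 and 0.69 for Neil3, and without controls 2 and 3 it was 0.47 for Kntc1, 0.42 for Neil3, 0.38 for Ankle1 and 1.31 for Hist2h4. Across the whole table this fit, made with limma, called 0 of 466 genes (0%) at an adjusted p of 0.05, with 245 at an unadjusted p under 0.05. On the recovered reads edgeR called 0, with 246 at an unadjusted p under 0.05, and DESeq2 called 48, all of them lower. All 466 genes had been selected on these same values, so the adjustment over them has no valid error rate. These counts are given as a description.

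**Figure D3:**
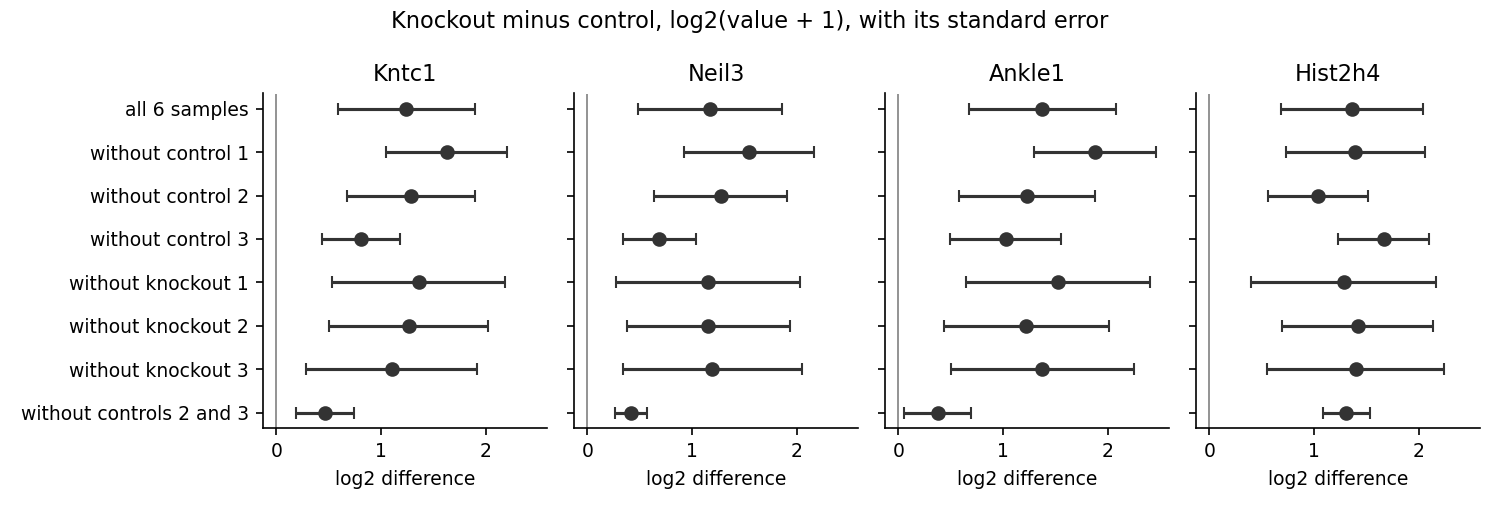
Difference between knockout and control in mean log2(value + 1) for each gene, over all 6 samples, without each sample and without controls 2 and 3. Bars are standard errors from limma, moderated towards the variance trend of all 466 listed genes. All values are above 0, which follows from every knockout value being above every control value. Without controls 2 and 3, Kntc1, Neil3 and Ankle1 come down to 0.47, 0.42 and 0.38 while Hist2h4 stays at 1.31.

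Kntc1, Neil3 and Ankle1 had the same order over the controls, highest in control 1 and lowest in control 3, and no common order over the knockouts, where Kntc1 was highest in knockout 3, Neil3 in knockout 1 and Ankle1 in knockout 2. Of the 18 higher genes with a mean of at least 20 normalised reads, 7 had this order of controls, namely these genes and C920009B18Rik, Kcnj12, Acod1 and Gm10222, so it is not particular to them. Likeness was measured as the root mean square gap between profiles of log2(value + 1) over the 6 samples, each profile centred on its own mean. Each gene was set against the 124 other protein-coding listed genes with a name other than Gm or Rik and a mean of at least 20. The gap was 0.19 between Kntc1 and Neil3, 0.28 between Kntc1 and Ankle1 and 0.33 between Neil3 and Ankle1. Each of these genes had the other two as its nearest genes of the 124, and the next, Zfp503, a zinc finger gene, was at 0.53 from Kntc1, 0.63 from Neil3 and 0.62 from Ankle1. Hist2h4 was farther off, at 0.76 from Kntc1, 0.79 from Neil3 and 0.72 from Ankle1. Its nearest genes were Xirp1, which encodes an actin-binding muscle protein, at 0.39, the phosphodiesterase gene Pde10a at 0.40 and Zfp503 at 0.46. Only 12 of the 125 candidates were higher in the knockout, so part of this likeness is the difference on which the genes were picked.

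The group difference was therefore taken out by centring each group on its own mean, a setting chosen after the data were seen. Kntc1, Neil3 and Ankle1 again had each other as their 2 nearest genes of 124, at gaps of 0.19, 0.27 and 0.31. The next nearest were genes that stood lower in the knockout, Tspoap1 at 0.40 from Kntc1, Klf15 at 0.37 from Neil3 and Rps27rt, a ribosomal protein retrogene, at 0.35 from Ankle1. Hist2h4 ranked 19 of 124 from Kntc1, 22 from Neil3 and 13 from Ankle1, and its own nearest genes were then Fosb and Dusp18, both at 0.28, and Cx3cr1 at 0.30. These gaps are descriptions over 6 samples that share their libraries.

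**Figure D4:**
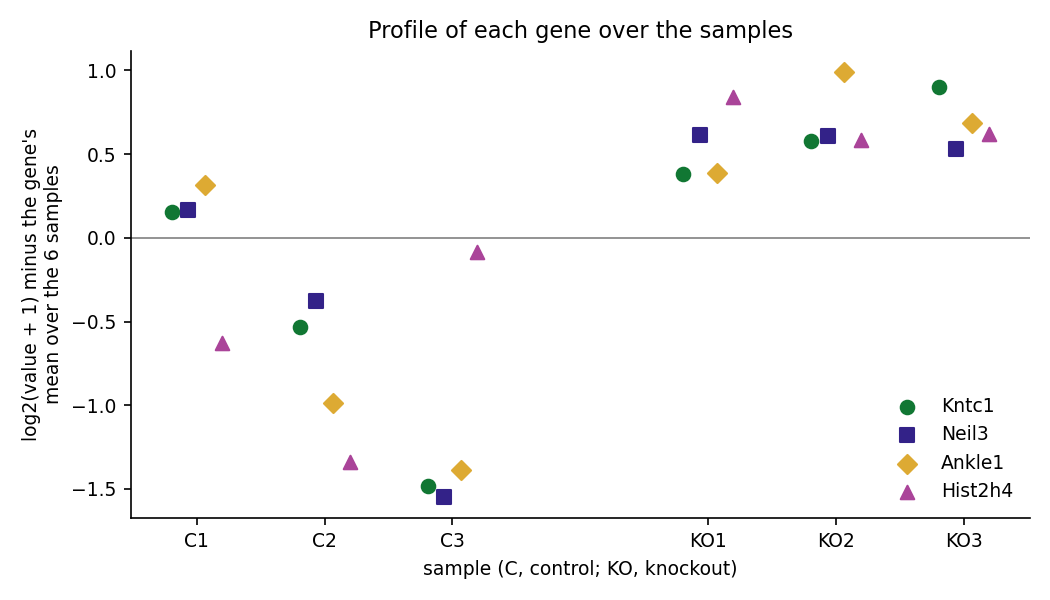
Log2(value + 1) of each gene minus its mean over the 6 samples, in controls C1 to C3 and knockouts KO1 to KO3. Over the controls Kntc1, Neil3 and Ankle1 lie together, between 0.15 and 0.31 in C1 and between -1.55 and -1.39 in C3, while Hist2h4 stands at -0.63 in C1 and -0.08 in C3.

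The promoters of these genes were searched for letters known from cell cycle genes. The CHR element, TTTGAA, is bound by the DREAM and MuvB complexes, and E2F sites were searched as TTTCCCGC, TTTGGCGC, TTTGCCGC and TTTCGCGC. The box bound by NF-Y was searched as CCAAT and that of TATA-binding protein as TATAAA, and each motif was searched on both strands. Windows of 300 bases, 250 before and 50 after the start site, were taken from RefSeq (GRCm38.p6), where Kntc1, Neil3 and Ankle1 were matched by symbol and Hist2h4 was not. The windows of Kntc1 and Ankle1 are shown because both hold a CHR element just before the start site that RefSeq gives. Capitals mark the motifs, and the sequences run 5′ to 3′ on the strand of the gene, chr5:123749476-123749775 on the plus strand for Kntc1 and chr8:71405762-71406061 on the plus strand for Ankle1.
Kntc1: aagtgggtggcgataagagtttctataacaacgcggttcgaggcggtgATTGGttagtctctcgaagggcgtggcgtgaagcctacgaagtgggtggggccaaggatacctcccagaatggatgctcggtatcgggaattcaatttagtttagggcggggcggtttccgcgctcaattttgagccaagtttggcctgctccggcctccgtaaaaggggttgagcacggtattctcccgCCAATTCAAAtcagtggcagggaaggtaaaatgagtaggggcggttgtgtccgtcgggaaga
Ankle1: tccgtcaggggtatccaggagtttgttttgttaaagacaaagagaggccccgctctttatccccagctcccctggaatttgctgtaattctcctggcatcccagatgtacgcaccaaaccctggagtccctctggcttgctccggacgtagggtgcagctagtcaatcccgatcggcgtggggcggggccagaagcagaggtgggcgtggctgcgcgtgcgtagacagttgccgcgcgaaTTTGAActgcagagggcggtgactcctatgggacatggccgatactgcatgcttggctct

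The CHR letters begin 10 bases before the start site in Ankle1. In Kntc1 they lie on the opposite strand, as TTCAAA, and begin 8 bases before the RefSeq start at 123749726, where the coding transcript of GENCODE M21 also starts. The gene as the table gives it starts 10 bases earlier, at 123749716, so these letters lie inside it. They share 1 base there with a CCAAT box that begins 12 bases before the start, and a further CCAAT box, on the opposite strand, begins 202 bases before it. The Neil3 window held none of the motifs. Over all 32851 promoters of this table, the CHR letters were present in 17.9%, the CCAAT box in 37.4%, the TATA box in 13.6% and an E2F site in 2.26%. A CHR element wholly within the 20 bases before the start, a limit chosen after these windows were seen, was present in 297 promoters (0.904%), those of Kntc1 and Ankle1 among them. Such matches are a description and not binding sites.

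The sum of Kntc1, Neil3 and Ankle1 was 153, 184 and 189 normalised reads in knockouts 1, 2 and 3, and 129, 72.7 and 38.2 in controls 1, 2 and 3. Markers of other cells also varied over the same samples. Only listed markers had values, and 2.44% of the 19107 genes in the authors' adjustment were listed. The listed markers of neurons, choroid plexus, erythroid cells, astrocytes, and endothelial and mural cells were all listed as lower. Their lower levels in the knockouts therefore follow from how the authors picked them. Of 8 neuron markers 6 were listed (Grin1, Snap25, Syn1, Syt1, Thy1 and Tubb3), with sums of 65.7, 161 and 750 normalised reads in controls 1, 2 and 3 and from 12.1 to 61.3 in the knockouts. Control 3, where Kntc1, Neil3 and Ankle1 were lowest, thus had the highest sum of these markers. Control 1, where Kntc1, Neil3 and Ankle1 were highest among controls, had the lowest sum of the controls. Thy1 alone gave 542 of the sum in control 3. Snap25, Syt1, Syn1 and Tubb3 were also highest in control 3, but Grin1 was higher in control 2 (33.9) than in control 3 (20.5). Tubb3 was lower in control 2 (2.91) than in control 1 (3.92). Of 8 choroid plexus markers 5 were listed (Aqp1, Cldn2, Kcnj13, Otx2 and Ttr), with sums of 3420, 18954 and 318 in controls 1, 2 and 3 and from 578 to 2001 in the knockouts. Ttr made up most of each sum and was lowest of all samples in control 3, at 265, whereas the other 4 markers summed to 51.0, 383 and 52.8 in controls 1, 2 and 3 and from 15.2 to 45.2 in the knockouts. Of 8 erythroid markers 2 were listed, Hba-a1 and Hbb-bs, with sums of 28.5, 176 and 268 in controls 1, 2 and 3 and from 0 to 28.6 in the knockouts. In knockout 1, which held 0 reads of both globin genes, Kntc1 and Ankle1 were lowest of the knockouts and Neil3 and Hist2h4 highest. Of 8 astrocyte markers 2 were listed, with sums from 9.81 to 59.2 in controls and from 3.04 to 16.3 in the knockouts. Of 8 endothelial and mural markers Acta2 alone was listed, at 26.5, 22.3 and 189 in controls 1, 2 and 3 and from 4.08 to 26.3 in the knockouts. Of 9 monocyte, dendritic cell and border macrophage markers, 2 were listed, in opposite directions. Cd209a stood from 11.8 to 14.5 in controls and from 3.06 to 5.06 in the knockouts, and Clec4n from 0 to 0.98 in controls and from 2.04 to 6.88 in the knockouts. The part of these other transcripts in the differences was not tested, and fewer dividing cells and less RNA per cell cannot be told apart in such samples.

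**Figure D5:**
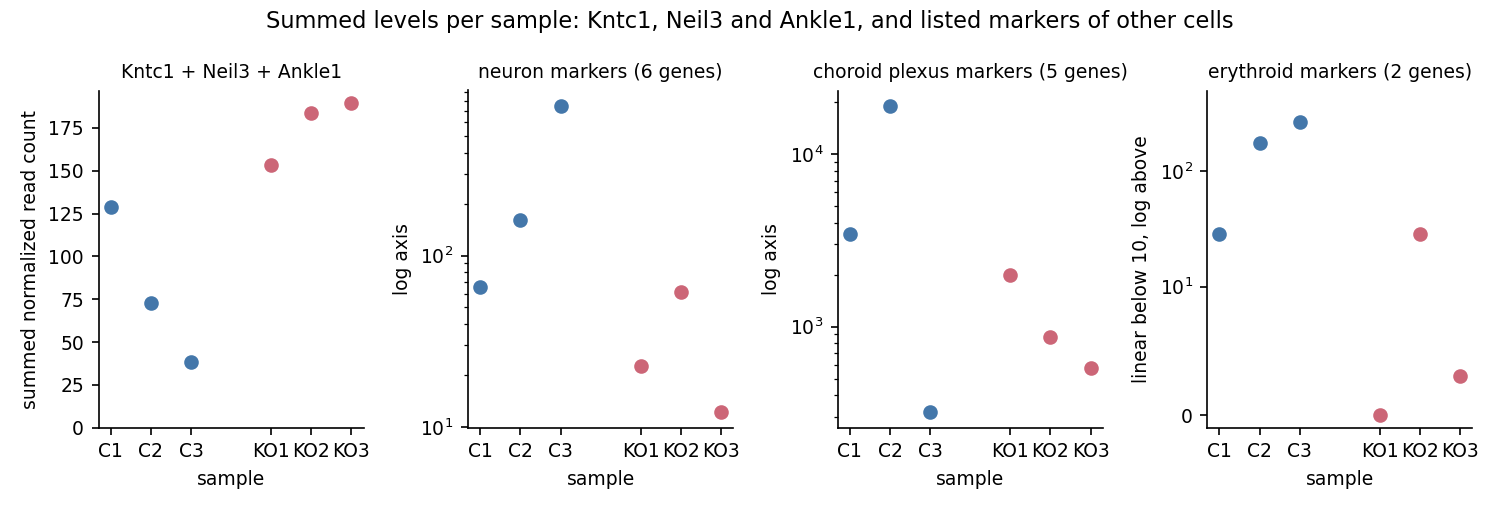
Summed normalised read counts per sample of Kntc1, Neil3 and Ankle1 (linear axis from 0) and of the listed markers of neurons, choroid plexus (log axes) and erythroid cells (linear below 10, log above). Control C3 has the lowest sum of the first set, 38.2, and the highest neuron sum, 750, of which Thy1 gave 542. The markers of neurons, choroid plexus and erythroid cells shown were all picked by the authors as lower in the knockout.

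Markers of other cells that can divide were also looked for. Lists of 8 markers each for T and B lymphocytes, for neutrophils and their precursors, for neuroblasts and neural precursors and for oligodendrocytes and their precursors had 0 listed genes. Of the 19107 genes in the authors' adjustment, 2.44% were listed. Lists of 8 may thus hold 0 whether or not such cells were present. Of 18 microglial genes, Cx3cr1 alone was listed, at 32081, 27906 and 35698 normalised reads in knockouts 1, 2 and 3 and 58569, 61450 and 79363 in controls 1, 2 and 3. The Cre cassette sits in its locus. The targeted gene, Piezo1, is outside the list of 466, and no level of it was used here to check the genotypes.

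Genes of the wider machinery around these genes were looked for among the 466 listed. Of 46 kinetochore and spindle checkpoint genes, which include Zw10 and Zwilch, the partners of Kntc1 in its complex, Kntc1 alone was listed. Of 22 base excision repair genes, Neil3 alone was listed, and its relatives Neil1 and Neil2 were not. Of 16 structure-specific nucleases, Ankle1 alone was listed, and of 67 histone genes, Hist2h4 alone. Messages of replication-dependent histones usually lack a poly(A) tail, so libraries of poly(A) RNA limit what the histone count can show. Lists of 67 cell cycle and mitosis genes, with Mki67, Top2a and Cdk1, of 40 DNA replication genes, with Pcna and the Mcm helicase genes, of 30 crosslink repair and recombination genes and of 18 genes of histone supply had 0 listed genes. In all, 4 of 305 genes of these lists were listed (1.31%), and 0 of the other 301. For comparison, 466 of the 19107 genes in the authors' adjustment were listed (2.44%), 56 of them as higher (0.293%). The 4 listed are the picked genes themselves, and the lists were chosen with these genes known. The 0 of the other 301 counts genes listed in either direction, so the share to set beside it is 2.44%. It lies below that share, and it is not read as a result. What the other 301 genes did was not analysed here.

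Per length of the gene model given in the table, the order of levels was Ankle1, Hist2h4, Kntc1 and Neil3 in the knockout. The levels were 19.3 ± 4.10, 18.9 ± 1.94, 10.002 ± 1.87 and 8.32 ± 0.27 normalised reads per kb (SD, n = 3 each). Ankle1 and Hist2h4 did not differ beyond their spread there, and nor did Kntc1 and Neil3. In controls the same order held, at 8.16 ± 5.61, 7.40 ± 3.32, 4.57 ± 2.47 and 4.04 ± 2.21 normalised reads per kb (SD, n = 3 each), and no neighbours in it differed beyond their spread. The order depends on the length used. Per kb of the coding transcript used for the window test, Neil3 (2253 bases against 5555 in the table) stood second in the knockout, at 20.5 ± 0.66, between Ankle1 at 23.1 ± 4.91 and Hist2h4 at 18.9 ± 1.94, with Kntc1 at 11.5 ± 2.14 (SD, n = 3 each).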

How the data were processed

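Microglial poly(A) RNA of 3 knockout and 3 control samples was sequenced as paired reads of 150 bases, and samples were grouped by title, per the labels. The submitters' processing notes name cutadapt 1.11, RSEM 1.2.30, HISAT2, R 3.6.1 and DESeq2, and the build GRCm38, in no order. The deposited values are normalised read counts, a signal that is never negative, and every one was a whole multiple of 1 read's value in its sample (100% within a tolerance of 1e-06). This corresponds to counts divided by size factors, here between 0.979 and 1.03. Beside them stand deposited log2 fold changes with a p-value, raw and adjusted, computed by the authors with a test that no source used here names. The table holds 466 genes selected by the authors, so its sums (49643 to 180760 reads) are not depths, which are unknown. The p-values would measure the spread between these samples only.

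Differences are of mean log2(value + 1), fitted over all 466 genes with limma 3.58.1 (R 4.3.3) with a mean-variance trend and Benjamini-Hochberg adjustment. The recovered reads were fitted with edgeR 4.0.16 and DESeq2 1.42.0. The fits were tested on simulated data first. The 4 genes and all lists were chosen with earlier results of these data known. The genes named were the 4, Cx3cr1, Piezo1, listed genes of the lists, and the 3 nearest profiles of each. Gene coordinates equal those of GENCODE M21.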

Additional observations from a re-analysis of the deposited data

How the results depend on the processing

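For the differences of the 4 genes, 60 alternative values were computed, all with the same sign, and 53 moved by less than the SD between replicates. Every knockout value was above every control value, so leaving out samples or changing the pseudocount could not change the sign. The replicate block and the filter on a mean of at least 10 could not change the differences in this balanced design. These counts are therefore no test of robustness. The 7 values that moved by more came from 2 settings. Scaling each sample by the median ratio over listed genes gave 2.76 for Kntc1, 2.66 for Neil3, 2.85 for Ankle1, 2.80 for Hist2h4 and 2.49 for the log2 ratio of the summed level of the 4 (1.17 without it). It moved the median difference of all listed genes from -1.99 to -0.97, since most of them were picked as lower. Without controls 2 and 3, a setting chosen after seeing the data, the differences were 0.47 for Kntc1, 0.42 for Neil3 and 0.38 for Ankle1. Leaving out each sample in turn gave from 0.81 to 1.63 for Kntc1, 0.69 to 1.54 for Neil3, 1.03 to 1.88 for Ankle1, 1.04 to 1.67 for Hist2h4 and 0.91 to 1.61 for the summed level. Controls 1 and 3 gave the ends of these ranges, apart from the lower end of Hist2h4, which was without control 2. The number of listed genes called by limma was 0, and it was 120 with a pseudocount of 0.5, 1 with genes of a mean of at least 10 only, 4 with a replicate block, 48 with DESeq2, 56 under the scaling above (46 of them higher), 54 without controls 2 and 3, and 0 to 196 when single samples were left out (196 without control 1 and 36 without control 3). All 4 genes passed under that scaling, 1 of them, Ankle1, without control 1, and 0 under the other settings, and nothing is read from this, since they were picked on these values. The cause of these shifts was not tested. The replicate block left the differences at 1.24, 1.17, 1.38 and 1.37. The deviations of same-numbered samples had r of -0.04, -0.04 and 0.07 across 466 genes, which are not independent. Samples of unlike number had r from -0.19 to 0.27. With 3 samples per group, these values cannot tell whether the numbers pair the samples. Levels of 7 to 95 reads per gene and sample limit the precision, and the depth of the libraries is unknown.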
